A study of Mus musculus with 6 samples.

Results

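The laminin chains Lama2, Lama4, Lama5, Lamb1, Lamb2 and Lamc1, the nidogens Nid1 and Nid2 and the proteoglycan perlecan (Hspg2) were followed in RNA of cultured mouse osteoclasts. The members were these 9 genes of 37074 gene names on the array, and every transcript probe that carried one of their names was taken, 27 of 56605 probes. The arrays came from osteoclasts of 3 Ano1fl/fl mice, which carry floxed alleles of the calcium-activated chloride channel gene Ano1, and of 3 Ctsk-Cre;Ano1fl/fl mice, which carry the same floxed alleles and Cre driven by the promoter of cathepsin K. Bone marrow cells of both groups had been induced with the osteoclast cytokine RANKL for 5 days, and the study's methods name littermate controls and, for such cultures, mice of 6 to 8 weeks, with M-CSF at 30 ng/ml beside RANKL at 50 ng/ml. Cre from this promoter acts in cells that express cathepsin K, so cells of the marrow culture that do not express it may keep the gene. The RNA is that of whole cultures, in which fewer cells of a type and less RNA per cell cannot be told apart. Replicates are separate samples in the labels, and the p-values measure the spread between these arrays.

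Laminins are trimers of 1 alpha, 1 beta and 1 gamma chain that assemble inside the cell and polymerise into the sheet of the basement membrane. Nidogens join that sheet to the collagen IV network, and perlecan, a large heparan sulfate proteoglycan, adds further links and holds growth factors. Bone marrow stroma, vessel walls, fat and muscle are known sources of these proteins, and integrins and dystroglycan are their receptors on cells.

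The only probe of Ano1 stayed under the background limit on all 6 arrays, with processed signals of 3.29, 3.23 and 3.91 in Ano1fl/fl and 3.23, 3.25 and 3.81 in Ctsk-Cre;Ano1fl/fl. The deletion was therefore not checked by these arrays, and each direction below rests on the labels. Osteoclast markers, given further on, were mostly higher in the arrays labelled Ctsk-Cre;Ano1fl/fl, which is opposite to the direction the study describes for functional osteoclast markers in cells of these genotypes. Whether the labels are in the right order was not tested. On each array 33480 to 34951 of 59305 transcript spots were well above background, and no transcript spot was saturated. Pearson correlations of log2 signals across genes were 0.994 to 0.997 between arrays of a group and 0.944 to 0.950 between groups, and genes are not independent replicates. All 6 arrays were on 1 slide and in 1 scan. The first slide row held Ano1fl/fl replicates 1 and 2 and the second row the other 4 arrays.

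Each probe is 60 bases long. The sequences shown are coding sequence of the members, chosen because they carry a difference between the groups or show where probes of a gene disagree, and they are given 5′ to 3′ in lower case with the array's name for each probe.
Lama4 A_51_P212420: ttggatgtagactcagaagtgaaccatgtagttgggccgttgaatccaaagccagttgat
Lamb1 A_51_P244287: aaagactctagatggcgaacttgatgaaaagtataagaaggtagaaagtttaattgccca
Lamb1 A_55_P2737049: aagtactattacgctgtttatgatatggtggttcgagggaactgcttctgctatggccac
Lamb2 A_51_P248044: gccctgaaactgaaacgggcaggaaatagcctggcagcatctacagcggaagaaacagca
Lamc1 A_66_P130669: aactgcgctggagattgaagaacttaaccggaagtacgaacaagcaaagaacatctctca
Nid1 A_55_P2084303: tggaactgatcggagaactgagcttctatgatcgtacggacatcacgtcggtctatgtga
Hspg2 A_55_P1959648: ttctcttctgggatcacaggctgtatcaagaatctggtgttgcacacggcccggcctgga

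The laminin chains Lama4, Lama5, Lamb1 and Lamb2, the nidogen Nid1 and perlecan (Hspg2) were higher in osteoclasts of Ctsk-Cre;Ano1fl/fl mice. By called probes above background on all 6 arrays, the differences ran from 4.45-fold (Lama5) to 42.0-fold (Lamb1), and Lama4 and Lamb2 had no such probe. The gamma chain Lamc1 and the nidogen Nid2 were not called, and no probe of Lama2 passed the filter for the test. Of the 27 probes, 12 passed the background limit on the 3 arrays of 1 group or of both and entered the limma test, and 11 were below it on all 6 arrays. In the test, adjusted with Benjamini-Hochberg over 31848 probes and called at an adjusted p under 0.05, 8 of the 12 were called higher in Ctsk-Cre;Ano1fl/fl, 0 were called lower and 4 were not called. Over all tested probes 21.8% were called higher and 30.6% lower. All 8 called member probes were also more than 2-fold higher in the fit, which held for 8.91% of all tested probes, and in all 8 the groups did not overlap, which held in that direction for 26.9%. The median log2 difference over the 12 tested probes was 2.39, against -0.09 over all tested probes. Of the 8 called probes, 4 entered the test only through the Ctsk-Cre;Ano1fl/fl arrays, those of Lama4 and Lamb2 and 2 of the Lamb1 probes, and the Lama4 probe and 1 of these Lamb1 probes were dim on all 3 Ano1fl/fl arrays. Such probes were admitted by the group in which they are high, so the counts, the median and the adjusted p of these 4 probes are a description. The other 4, of Lama5, Lamb1, Nid1 and Hspg2, were above background on all 6 arrays.

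**Figure D1:**
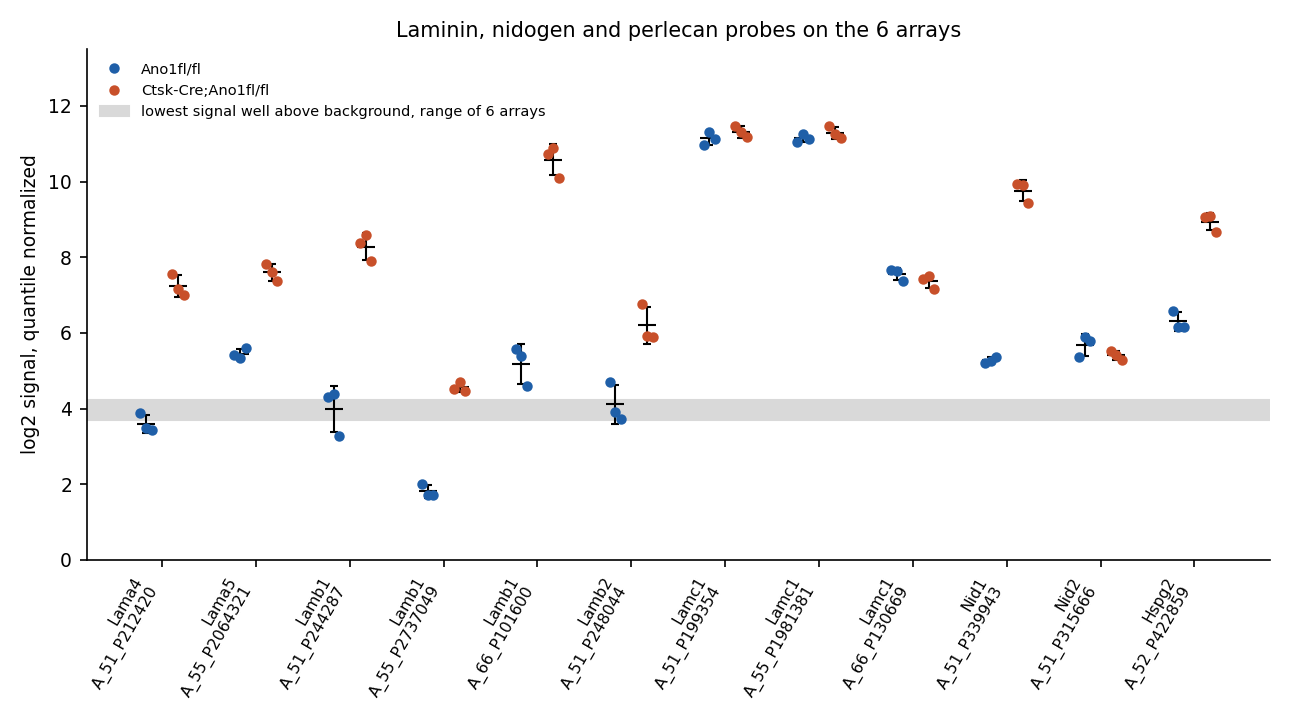
Log2 signal after quantile normalization (vertical axis) of the 12 tested member probes (horizontal axis) on 3 Ano1fl/fl and 3 Ctsk-Cre;Ano1fl/fl arrays. Points are arrays, the cross lines the group mean, and the error bars 1 SD. The groups are apart for 8 probes and overlap for the Lamc1 and Nid2 probes. The grey band spans the lowest signal well above background on the 6 arrays.

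Among the alpha chains, which carry the main receptor-binding domains of a laminin, Lama4 and Lama5 rose. Lama4, known from vessels, fat and muscle, gave processed signals of 13.6, 11.6 and 12.3 in Ano1fl/fl and 195, 118 and 118 in Ctsk-Cre;Ano1fl/fl with probe A_51_P212420. All 3 Ano1fl/fl arrays were under their background limit and all 3 Ctsk-Cre;Ano1fl/fl arrays above it, so the difference is a bound. The probe lies at position 5651 of its transcript, at chr10:38825794-38825853 of mm9 on the plus strand. The signal was at least 9.67-fold higher in Ctsk-Cre;Ano1fl/fl, on mean log2 signals of 7.24 ± 0.29 (SD, n = 3) against a measured 3.59 ± 0.25, with an adjusted p of 3.8e-05 in the limma fit. An at-least fold here sets the bright group's mean against, on each dim array, the higher of the probe's own signal and the lowest signal that was well above background there. The other 3 Lama4 probes were not tested. One of them, A_55_P2733262 at position 2027 of the same transcript, gave 3.22, 3.06 and 3.69 against 12.7, 18.0 and 8.30 and passed background on 1 Ctsk-Cre;Ano1fl/fl array.

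Lama5, the alpha chain of most mature epithelial and vascular basement membranes, gave 40.6, 44.0 and 58.2 in Ano1fl/fl and 235, 161 and 155 in Ctsk-Cre;Ano1fl/fl. Its only probe was above background on all 6 arrays, and the lowest Ctsk-Cre;Ano1fl/fl array was above the highest Ano1fl/fl array. The log2 signal was 5.45 ± 0.13 in Ano1fl/fl and 7.61 ± 0.22 in Ctsk-Cre;Ano1fl/fl (SD, n = 3 each). The difference of 2.15 (SE 0.14), 4.45-fold, had an adjusted p of 8.0e-05 in limma. The probe starts at position 11327 of its transcript, at chr2:179911079-179911138 of mm9 on the minus strand.

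Lama2, the alpha chain of muscle and Schwann cell basement membranes, had 5 probes and none passed the filter for the test. A_52_P459341 gave 3.23, 3.06 and 3.70 in Ano1fl/fl and 16.4, 8.85 and 3.25 in Ctsk-Cre;Ano1fl/fl. Only the highest of these, on Ctsk-Cre;Ano1fl/fl replicate 1, was well above background. A_55_P2158946, on the RefSeq transcript, read 3.21, 3.02 and 3.70 against 7.47, 6.80 and 5.26, below background throughout, as were the other 3 probes on all 6 arrays. Without the filter on dim probes A_55_P2158946 was called higher (adjusted p = 0.0038 in limma), but a size was not measurable at this signal.

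Of the beta chains, Lamb1 showed the largest fitted difference among the 12 tested member probes. Probe A_66_P101600 of Lamb1, the most widely used beta chain, gave 45.2, 46.0 and 28.0 in Ano1fl/fl and 1748, 1532 and 1045 in Ctsk-Cre;Ano1fl/fl. All 6 arrays were above background and the groups lay far apart. The log2 signal was 5.19 ± 0.53 in Ano1fl/fl and 10.58 ± 0.41 in Ctsk-Cre;Ano1fl/fl (SD, n = 3 each), a difference of 5.39 (SE 0.31, 95% interval 4.64 to 6.15) or 42.0-fold, with an adjusted p of 6.1e-05 in limma. The probe lies at position 5684 of the transcript, at chr12:32014411-32014470 of mm9 on the plus strand.

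A further Lamb1 probe, A_51_P244287 at position 5332, whose sequence is shown above, crosses an intron and spans chr12:32012684-32014030 of mm9. Its signals were 18.4, 22.4 and 11.2 against 344, 315 and 224. They passed background on 2 of 3 Ano1fl/fl arrays and on every Ctsk-Cre;Ano1fl/fl array, with no overlap. The log2 difference was 4.29 (SE 0.33), 19.6-fold, with an adjusted p of 0.00017 in limma.

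Another Lamb1 probe, A_55_P2737049 at position 1039, gave 3.61, 3.05 and 3.69 against 24.7, 22.2 and 20.7. It was dim on all Ano1fl/fl arrays and only just above background on the others, so it shows a difference of at least 1.51-fold (adjusted p of 2.0e-05 in limma, on log2 signals of 1.81 ± 0.17 and 4.56 ± 0.13, SD, n = 3 each). Of these 3 probes of the RefSeq transcript, only A_66_P101600 did not enter the test through its high group alone. The other 2 Lamb1 probes, placed on transcripts outside RefSeq, were below background on all 6 arrays.

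Lamb2, the beta chain of the neuromuscular synapse, the glomerulus and vessel walls, had 1 probe, A_51_P248044, at chr9:108392189-108392248 of mm9 on the plus strand. It gave 24.2, 15.9 and 15.4 in Ano1fl/fl and 112, 50.3 and 55.2 in Ctsk-Cre;Ano1fl/fl. The lower group was close to the background limit, which 2 of its 3 arrays passed, and replicate 1 was the highest array of each group. The log2 signal was 4.11 ± 0.51 against 6.20 ± 0.50 (SD, n = 3 each), and the difference of 2.09 (SE 0.33), 4.25-fold, had an adjusted p of 0.0028 in limma. This was the highest adjusted p of the 8 calls, for a probe that entered through its high group.

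Lamc1, the gamma chain shared by most laminins, was not called with any of its 3 tested probes. A_55_P1981381 gave 2019, 2772 and 2645 in Ano1fl/fl and 2881, 1989 and 2155 in Ctsk-Cre;Ano1fl/fl. The groups overlapped and all 6 arrays were bright. The log2 difference was 0.14 (95% interval -0.12 to 0.41, adjusted p = 0.31 in limma). A_51_P199354 shares a run of 55 bases with it and is no independent reading, at 0.18 (interval -0.12 to 0.47, adjusted p = 0.27 in limma).

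The separate probe A_66_P130669, at position 3912 of the Lamc1 transcript, gave 192, 218 and 198 against 178, 147 and 133. All 3 Ctsk-Cre;Ano1fl/fl arrays read lower on this raw scale, but after normalization the groups overlapped. Its log2 difference was -0.19 (interval -0.49 to 0.12, adjusted p = 0.26 in limma), opposite in sign to the other 2. Every one of the 3 intervals leaves out a 2-fold difference in either direction. The fourth probe, on a transcript outside RefSeq, was below background on all 6 arrays.

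The nidogens differed from each other. Nid1, also called entactin, gave 35.1, 41.9 and 48.8 in Ano1fl/fl and 1015, 790 and 660 in Ctsk-Cre;Ano1fl/fl with probe A_51_P339943, at chr13:13604417-13604476 of mm9 on the plus strand. All arrays were above background and the groups did not overlap. The log2 signal was 5.28 ± 0.08 against 9.76 ± 0.28 (SD, n = 3 each), a difference of 4.48 (SE 0.15, 95% interval 4.12 to 4.85) or 22.4-fold, with an adjusted p of 1.2e-05 in limma. The other 2 Nid1 probes were below background everywhere, among them A_55_P2084303 at position 269 of the same RefSeq transcript, which gave 3.21, 3.03 and 3.68 against 3.99, 7.98 and 3.24. The Nid1 difference therefore rests on 1 probe.

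Nid2, the second nidogen, gave 39.0, 65.1 and 66.3 in Ano1fl/fl and 47.0, 35.7 and 36.3 in Ctsk-Cre;Ano1fl/fl with probe A_51_P315666, at chr14:20630490-20630549 of mm9 on the plus strand. The groups overlapped through Ano1fl/fl replicate 1, the lowest of its group. The log2 difference was -0.28 (interval -0.65 to 0.09, adjusted p = 0.17 in limma). Without Ano1fl/fl replicate 1 it was -0.44 with an adjusted p of 0.023 and would be called lower, so the outcome for Nid2 turned on 1 array. The second Nid2 probe was above background only on Ano1fl/fl replicate 3, at 31.1, and between 3.03 and 3.29 on the other 5 arrays.

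Hspg2 (perlecan) gave 92.8, 78.6 and 86.5 in Ano1fl/fl and 560, 446 and 385 in Ctsk-Cre;Ano1fl/fl with probe A_52_P422859, at chr4:137126392-137126451 of mm9 on the plus strand. The groups did not overlap and all arrays were above background. The log2 signal was 6.30 ± 0.25 against 8.94 ± 0.23 (SD, n = 3 each), and the difference of 2.64 (SE 0.17), 6.21-fold, had an adjusted p of 8.4e-05 in limma. The second Hspg2 probe, A_55_P1959648, gave 3.26, 3.12 and 9.86 against 25.1, 19.7 and 13.0, passed background on 2 arrays of Ctsk-Cre;Ano1fl/fl and was not tested.

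**Figure D2:**
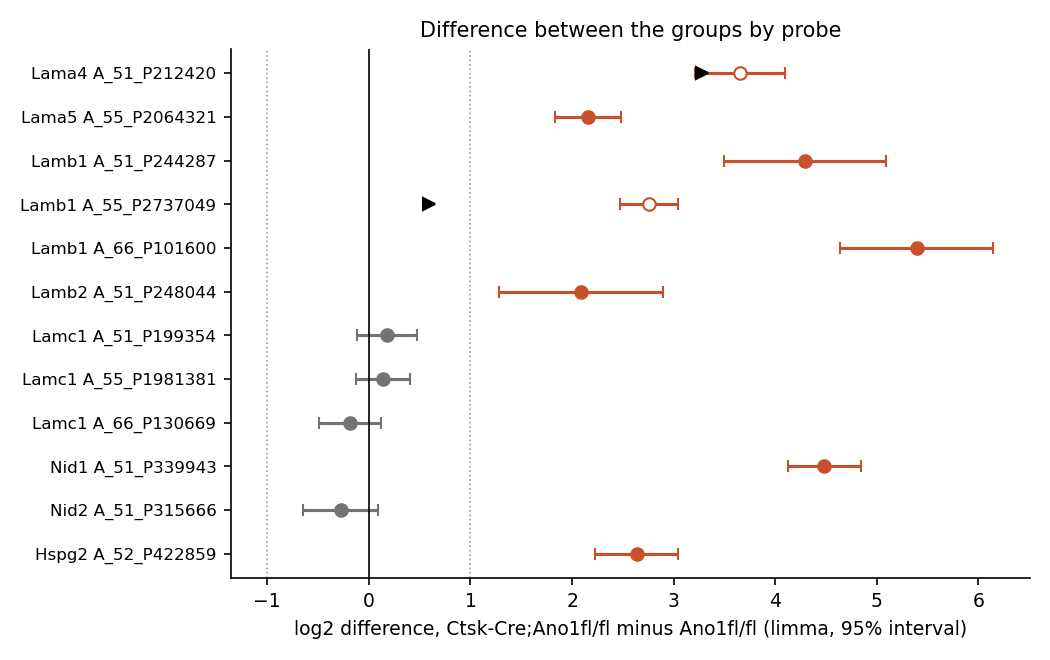
Log2 difference between the groups (horizontal axis) with its 95% interval from limma for the 12 tested member probes. Orange marks probes called at an adjusted p under 0.05, grey those not called, and open circles probes dim on all Ano1fl/fl arrays, whose lower bound is the black triangle. The dotted lines mark 2-fold. Lamb1 A_66_P101600 and Nid1 A_51_P339943 lie farthest to the right, and the 4 grey intervals stay inside the 2-fold lines.

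How far the background correction sets these sizes was checked with a normexp correction in place of the scanner software's. It kept all 8 calls but made the differences smaller, at 3.95, 2.18 and 0.42 for the 3 Lamb1 probes, 3.25 for Nid1, 1.95 for Hspg2, 1.55 for Lama4, 1.24 for Lama5 and 0.79 for Lamb2. Lamb2 and the Lamb1 probe at position 1039 then fell short of 2-fold.

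Probes of one gene disagreed in whether they were read at all. Within the RefSeq transcripts of Lama4, Lamb1, Lamc1, Nid1 and Hspg2, the probe nearest to the transcript's end was above background on at least as many arrays as the probes before it. For Nid1 this was 6 arrays at position 5920 against 0 at position 269, for Lamb1 6, 5 and 3 arrays at positions 5684, 5332 and 1039, and for Hspg2 6 against 2. The Lama2 probes at positions 9364 and 1372 were both below background. Of the 8 member probes above background on all 6 arrays 7 lie on RefSeq transcripts, and of the 11 below it throughout 3 do. Of the members only Lamb1 and Lamc1 had at least 2 tested probes, all 3 of Lamb1 called higher and none of Lamc1 called. Over the array, 4.46% of 7220 genes with at least 2 tested probes had called probes in opposite directions.

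**Figure D3:**
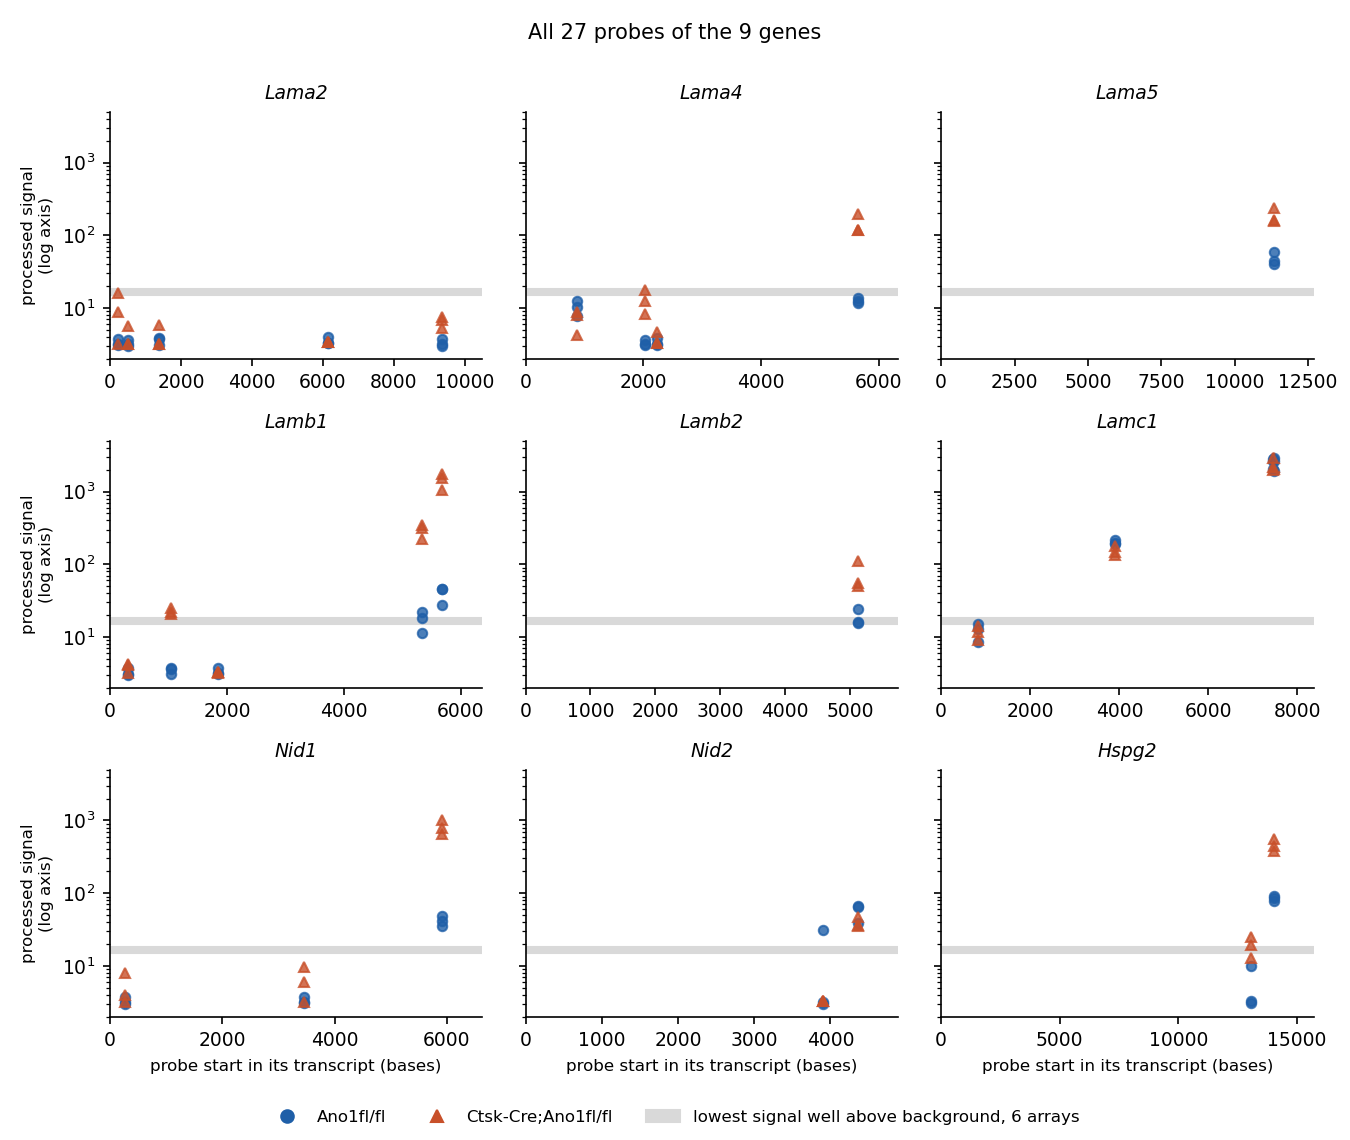
Processed signal (vertical log axis) of all 27 probes of the 9 genes against the start of the probe in its own transcript in bases (horizontal axis). Circles are Ano1fl/fl arrays, triangles Ctsk-Cre;Ano1fl/fl arrays, and the grey band spans the lowest signal well above background on the 6 arrays. Probes of one gene can belong to different transcripts. In Nid1, Lama4 and Hspg2 only the rightmost probe was tested and called, and in Lamb1 the probes at 5332 and 1039 were called as well as the rightmost.

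For partners in a trimer or family, log2 differences between probes were formed within each array. They restate the differences of the single probes above and are no independent reading. The Lamb1 minus Lamc1 difference was 5.25 higher in Ctsk-Cre;Ano1fl/fl (SD 0.54 and 0.33, n = 3 each, two-sided exact permutation p = 0.1). The Nid1 minus Nid2 difference was 4.76 higher (SD 0.24 and 0.19) and the Lamb1 minus Lamb2 difference 3.31 higher (SD 0.36 and 0.52), each with an exact p of 0.1 and 0.1 after adjustment over the 3 pairs. All 3 pairs are a description. In the last, the Lamb2 probe entered through the Ctsk-Cre;Ano1fl/fl arrays alone, with 1 Ano1fl/fl array under background. An exact p of 0.1 is the smallest value that 3 against 3 arrays allow, so the design cannot reach 0.05. In each pair the 3 arrays of one group were above all 3 of the other.

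The promoters of the members were read as well. RefSeq windows of GRCm38.p6, from 250 bases before to 50 after a promoter start site, were matched by symbol for 6 of the 9 members. These were Lama2, Lama5, Lamb1, Lamb2, Nid1 and Hspg2. The start site can lie inside the gene's span, and only 1 base of the Lama2 window lies outside it. The GC box GGGCGG, searched on both strands (CCGCCC), was in 5 of these 6 windows and in 35.7% of 32851 promoters of the same length. Hspg2 held 5 and Lamb2 held 0. The letters TATAAA, searched on both strands, were in 0 of the 6 and in 13.6% of all. The first 198 bases of the Hspg2 window, chr4:137468553-137468750 on the plus strand, and the first 235 of the Lamb2 window, chr9:108479612-108479846 on the plus strand, which lie outside the gene's span in RefSeq, are shown because both genes rose and their windows are the most unlike in GC boxes, which are in capitals. Lamc1 and Nid2, which were not called, had no window, so members that rose cannot be compared with them. A match in letters is a description and says nothing about binding.
Hspg2 promoter: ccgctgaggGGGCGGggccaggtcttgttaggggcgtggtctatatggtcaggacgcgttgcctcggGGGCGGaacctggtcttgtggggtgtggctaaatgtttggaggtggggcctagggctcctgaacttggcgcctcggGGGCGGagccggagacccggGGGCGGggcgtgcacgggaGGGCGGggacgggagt
Lamb2 promoter: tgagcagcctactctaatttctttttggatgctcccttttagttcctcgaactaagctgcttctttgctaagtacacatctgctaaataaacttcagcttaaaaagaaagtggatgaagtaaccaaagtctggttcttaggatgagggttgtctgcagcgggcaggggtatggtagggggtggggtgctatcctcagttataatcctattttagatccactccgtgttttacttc

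Genes that work with the members were read from the brightest probe of each gene, in a second limma fit over 20645 genes. Of these 23.4% were called higher and 29.0% lower, and their median log2 difference was -0.06. Counts, medians and adjusted p of a list are a description where a gene entered only through the group in which it is high. Of the other laminin chains, Lama1, an alpha chain of the early embryo, was at least 2.48-fold higher and Lamb3 at least 1.79-fold. Both were dim on all Ano1fl/fl arrays and entered the fit only through the Ctsk-Cre;Ano1fl/fl arrays. Their adjusted p of 0.00034 and 0.013 in limma belong to the fitted differences, not to these bounds, and are a description. Lama3 and Lamc3 were not above background on any array.

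Of 24 other basement membrane genes 13 were tested, 8 were called higher, 1 lower and 4 not. Their median log2 difference was 2.93, or 2.15 with dim genes at their bound. Of the genes above background on all 6 arrays, Col4a1, Col4a2 and Sparc were called higher, Col4a5 lower and 4 not. The others called higher entered only through the Ctsk-Cre;Ano1fl/fl arrays, so the count and the median are a description. Fbln2, a fibulin that binds nidogen and perlecan, was at least 67.0-fold higher. Pxdn, the peroxidase that crosslinks collagen IV, was 5.15 higher in the fit (SE 0.18), with 1 of 3 Ano1fl/fl arrays above background, and Sparc, a collagen-binding matricellular protein, 4.82 higher (SE 0.25). Of the collagen IV chains, Col4a1 and Col4a2 were 3.53 and 2.99 higher while Col4a5 was -3.21 (SE 0.21, adjusted p = 0.0001), the only one of the 13 called lower. Agrn (0.12, adjusted p = 0.33) and Col18a1 (-0.24, adjusted p = 0.52), both heparan sulfate proteoglycans like perlecan, were not called. Col4a3, Col4a4, Col15a1, Npnt, Egflam, Ntn4, Papln, Frem1 and Frem2 had no probe above background. The median depended on how dim probes were treated and was 0.85 with normexp, 1.31 with the series matrix's values, 0.19 with no filter and 0.29 with only genes above background on all 6 arrays.

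All 17 laminin receptor genes were tested, with 9 called higher, 2 lower, 6 not called and a median of 0.31, which was 0.17 to 0.36 over the alternatives and lowest with genes above background on all 6 arrays. The heparan sulfate carrier Sdc2 was 4.26 higher (SE 0.24), the integrin Itgb3, a marker of osteoclasts, 2.16 (SE 0.13) and the laminin-binding Itga7 2.11 in the fit (SE 0.18), with 1 of 3 Ano1fl/fl arrays above background. Itga1 was -1.52 (SE 0.20) and Itga6, whose product binds laminin with Itgb1 or Itgb4, -1.15 (SE 0.11). Dag1, which encodes dystroglycan, was -0.29 with an adjusted p of 0.061 and not called.

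Markers of the cell types that a marrow culture could hold are given beside the members because many make basement membrane. Of 20 stromal and osteoblast markers 18 were tested, 13 were called higher, 2 lower and 3 not, and their summed signal ran from 5670 to 6286 in Ano1fl/fl and from 41670 to 64450 in Ctsk-Cre;Ano1fl/fl. Col1a1 was 6.12 higher (SE 0.24) and Lum at least 22.7-fold, and Postn was 6.50 higher in the fit (SE 0.30) with 1 of 3 Ano1fl/fl arrays above background, while Lepr was -0.69, Runx2 -0.46, and Ibsp had no probe above background. The list's median was 3.64, against 2.39 for the brightest probes of the members, and 3.19 with dim genes at their bound. With normexp the medians were 2.26 for this list and 1.40 for the members.

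Of 12 smooth muscle and pericyte markers 8 were tested, with 5 called higher, 1 lower and a summed signal of 20800 to 22400 against 34730 to 39680. Acta2 made most of this sum, at mean log2 signals of 14.31 in Ano1fl/fl and 14.85 in Ctsk-Cre;Ano1fl/fl (difference 0.54, SE 0.08). Tagln was 5.08 higher and Cnn1 at least 11.3-fold, and Kcnj8 was -0.81, while Des, Rgs5, Abcc9 and Myocd had no probe above background. Endothelial markers, 13 of 16 tested, had 2 called higher (Pecam1 at 0.91 and Stab2 at 0.83), 4 lower (among them Kdr at -1.33) and 7 not called. Their summed signal was 5278 to 6475 against 3204 to 3460, with Kdr as the largest part, at mean log2 signals of 11.98 and 10.66. Tek and Tie1 had no probe above background. The part of stromal and smooth muscle cells in the members' differences was not tested.

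The osteoclast label was checked on 15 markers. Of these 14 were above background on all 6 arrays, and 14 were called higher and 1, Tnfrsf11a, lower (-0.40), with a median of 2.77 and a summed signal of 229600 to 247000 against 632300 to 715100. Calcr was 8.89 higher in the fit (SE 0.19), with 2 of 3 Ano1fl/fl arrays above background, Oscar 6.48 (SE 0.17) and Mmp9 4.36 (SE 0.17). Ctsk, whose promoter drives Cre, was 3.17 higher (SE 0.11), Acp5 0.84 (SE 0.07) and Nfatc1 0.53 (SE 0.09), 3 genes named after their values were seen. The second Nfatc1 probe, A_51_P517870, was called in the opposite direction, at -0.53 (SE 0.13, adjusted p = 0.014 in the limma fit over probes).

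**Figure D4:**
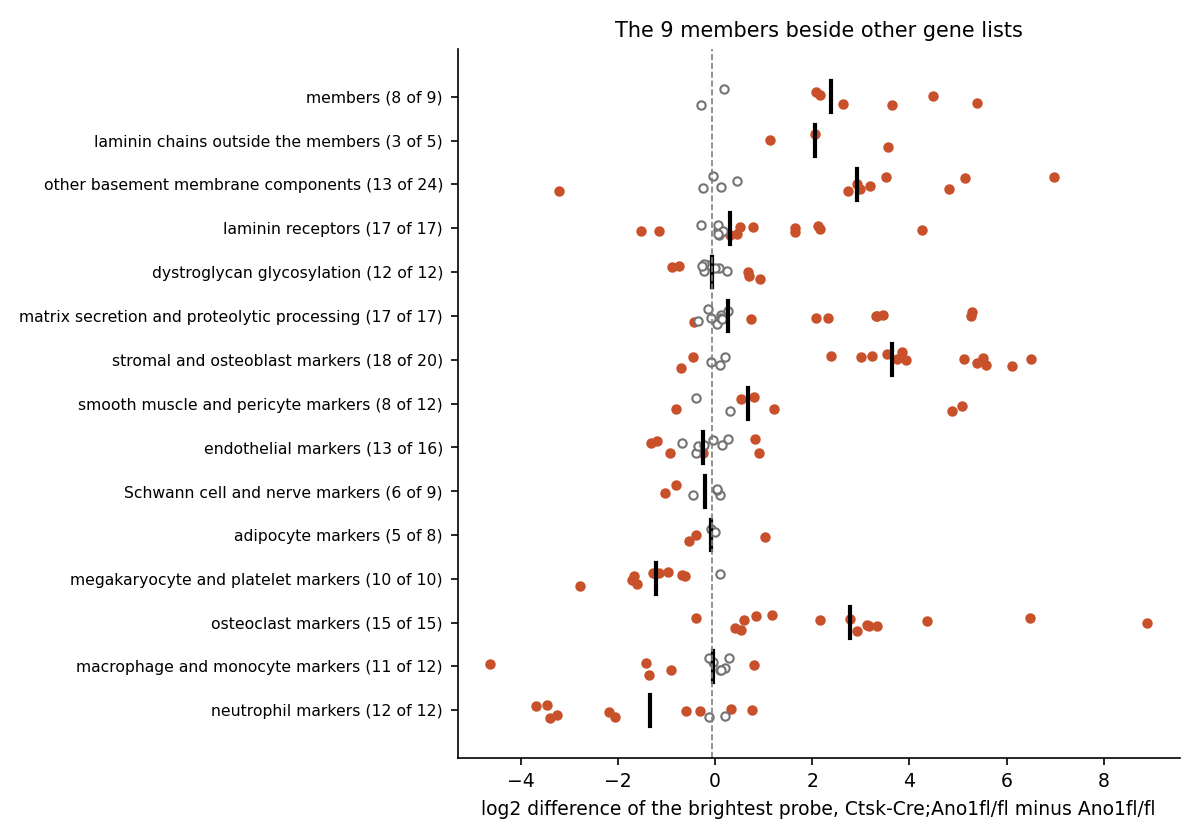
Log2 difference of the brightest probe of each tested gene (horizontal axis), by list, with the number tested of those on the array. Orange points were called in the limma fit over genes and open points were not, black bars are list medians, and the dashed line is the median of all genes, -0.06. Genes dim in one group are drawn at their fitted value. The medians are 2.39 for the members, 3.64 for the stromal and osteoblast markers and 2.77 for the osteoclast markers, and with normexp they are 1.40, 2.26 and 2.70.

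The genes whose brightest probe most resembled Lamb1 probe A_66_P101600 over the 6 arrays, by root mean square distance of log2 signals centred on the Ano1fl/fl mean, were Aebp1 (0.15), Ptprk (0.21), Serpinh1 (0.21), Fat1 (0.23) and Loxl1 (0.24). Ptprk was dim on all Ano1fl/fl arrays, and Fat1 was above background on 2 of them. No member was called lower, so no such search was made for a falling one.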

How the data were processed

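Per the labels, total RNA of 6 samples was amplified, labelled with Cy3 and hybridised to 1-colour Agilent arrays, and per the submitters' processing notes Agilent Feature Extraction 10.7.1.1 was used. The deposited values are intensities. The processed intensity had a spatial background surface subtracted within the array, and the series matrix held the unnormalized median intensity of each spot and was only an alternative. The authors' methods name quantile standardisation. Probe positions are in mm9, per the file headers.

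Outlier spots were set missing, log2 processed intensities were quantile normalized over the 6 arrays, spots of a probe were averaged, and limma 3.58.1 in R 4.3.3 was fitted without covariates over all probes well above background (at least 0.5 of spots) on all 3 arrays of 1 group. Adjusted p under 0.05 was called. The fits were tested on simulated data. Members and lists were chosen with earlier results of these data known. Genes named from a list are its 3 largest called rises and falls at most, and those with no probe above background; a few results are not reported here. Same-numbered replicates were not paired: their deviations correlated at -0.02, -0.08 and -0.09. Figures were drawn with matplotlib 3.10.9.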

Additional observations from a re-analysis of the deposited data

How the results depend on the processing

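The 8 member probes called higher kept their direction and their call under 75th percentile scaling, normexp, the series matrix's values, no filter on dim probes, limma's trend and robust settings, the methods' t-test, each array left out in turn and the slide row as a block, an alternative chosen after seeing the data. With no filter 11 were called higher and 10 were more than 2-fold higher, the 3 added being Lama2 A_55_P2158946 (1.00, adjusted p = 0.0038), Lama4 A_55_P2733262 (1.98, 0.013) and Hspg2 A_55_P1959648 (2.10, 0.029), which are dim on all Ano1fl/fl arrays and have no measured size. Over all alternatives run, the highest adjusted p of the 8 was 0.0225, in the methods' t-test. With the replicate block, 8 were also called higher. The series matrix's values made all 8 differences smaller, such as 2.05 for Lama4 A_51_P212420 and 0.71 for Lamb1 A_55_P2737049. With them 7 were more than 2-fold higher, and with normexp 6. A filter for probes above background on all 6 arrays left 4 called and 4 more than 2-fold higher, since the other 4 were then not tested. Leaving out arrays in turn gave 0 to 1 probes called lower, the 1 being Nid2. With the slide row as a block, the Lamc1 probe A_66_P130669 reversed to 0.00017 (adjusted p = 0.999). In that fit, which rests on the second row, where Ano1fl/fl had 1 array, the 8 differences ran from 2.01 to 5.99 with adjusted p of at most 0.0139. The 75th percentile scaling moved the median of all probes from -0.09 to -0.14. The replicate block gave 5988 probes called higher and 8162 lower of all probes, against 6943 and 9747. The slide as a block could not be fitted, since there was 1 slide. Signals near background limit Lama2, Lama4 and Lamb2.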

Other observations

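Other lists that bear on the members gave these values. Of 17 genes for matrix secretion and proteolytic processing, 8 were called higher, 1 lower and 8 not, with a median log2 difference of 0.26 that was 0.14 with genes above background on all 6 arrays: Mmp2 was at least 25.0-fold higher, the collagen chaperone Serpinh1 5.26 higher (SE 0.34) and the procollagen and laminin-processing protease Bmp1 3.46 (SE 0.23), while Plod1 was -0.44. Of 12 genes of dystroglycan glycosylation, which makes the laminin-binding sugar, 3 were called higher (Large at 0.93, Ispd at 0.70, Tmem5 at 0.68), 2 lower (B3galnt2 at -0.89, B4gat1 at -0.74) and 7 not, with a median of -0.07 that was 0.05 with the slide row as a block.

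Among other cell types, all 10 megakaryocyte and platelet markers were tested and 9 were called lower, with a median of -1.22. Their summed signal was 127300 to 145800 against 55450 to 64250, most of it from Pf4, at mean log2 signals of 16.85 and 15.69. Tubb1 was at least 3.59-fold lower and Ppbp and Gp9 were -1.72 and -1.68. Of 12 neutrophil markers 8 were called lower and 2 higher, with a median of -1.33 (Retnlg -3.68, Mpo -3.41). Of 11 tested macrophage and monocyte markers 4 were called lower and 1 higher, with a median of -0.04 that ran from -0.15 to 0.06 over the alternatives (Cx3cr1 -4.62, Adgre1 0.80), and Cd163 had no probe above background. Of 6 tested Schwann cell and nerve markers 2 were called lower, among them Mbp (-1.03), and Cdh19 had no probe above background, with a median of -0.20 that ran from -0.38 to 0.04 over the alternatives. Of 5 tested adipocyte markers 1 was called higher (Fabp4 at 1.04) and 2 lower (Cebpa -0.54, Pparg -0.38), with a median of -0.09 that was -0.38 with the mean of all tested probes of a gene and -0.21 with 75th percentile scaling, and Adipoq had no probe above background. The part of these cells in the members' differences was not tested.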
